A study of Mus musculus with 40 samples.

Results

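The genes described here are 40 genes that act between G2 and the end of cytokinesis. They were taken by name, and each of the 40 was present in the bulk table of 28467 genes and in the nucleus table of 32285 genes. By role, 10 belong to mitotic entry, 2 to the chromosomes themselves, 8 to the kinetochore and its checkpoint and 3 to the chromosomal passenger complex. A further 9 belong to the spindle, 2 to the anaphase-promoting complex and 6 to cytokinesis.

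The mice were C57BL/6 males of 8 to 12 weeks, and RNA came from their right kidney after the left one had been taken out (unilateral nephrectomy, UNx) or after a sham operation. Bulk RNA-seq of polyadenylated RNA from a cross-section of the kidney covered 36 mice, with 6 sham and 6 UNx at 24 h, at 48 h and at 72 h after the operation. Single-nucleus RNA-seq at 24 h covered 2 sham and 2 UNx mice, with nuclei sorted on a DNA stain. No genetic change is labelled for any mouse, and each library has its own mouse number.

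Mitosis is entered when cyclin A and cyclin B kinases are activated, after which the chromosomes condense, attach to spindle microtubules through kinetochores and are held by a checkpoint until all are attached. The anaphase-promoting complex then marks cyclins and the proteins that hold sister chromatids together for destruction, and a contractile ring divides the cell. Genes of this group are transcribed mainly in dividing cells. In textbook accounts their promoters carry a cell cycle homology region (CHR), bound by the MuvB complex, and CCAAT boxes, bound by NF-Y. Most cells of the adult kidney do not divide, and a kidney that remains after loss of the other enlarges mainly by growth of its cells.

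Promoter sequences are shown for 6 genes so that these motifs can be read beside the expression values. They are the 4 genes with the lowest p and the 2 with the highest p at 72 h among those with an entry in the RefSeq table (build GRCm38.p6) that lie on the chromosomes printed here. Each line holds the 150 bases before the annotated start, 5′ to 3′ on the gene's strand, with CHR motifs (TTTGAA or TTTAAA) and CCAAT boxes of either strand in capitals.
Mad2l1, chr6:66535071-66535220, plus strand: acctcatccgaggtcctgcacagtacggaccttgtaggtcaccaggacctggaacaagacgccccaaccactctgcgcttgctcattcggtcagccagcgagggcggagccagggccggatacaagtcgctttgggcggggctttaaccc
Spc25, chr2:69206214-69206363, minus strand: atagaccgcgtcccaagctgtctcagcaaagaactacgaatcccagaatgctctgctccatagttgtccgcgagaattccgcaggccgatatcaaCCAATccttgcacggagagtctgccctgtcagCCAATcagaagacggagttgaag
Ckap2, chr8:22185820-22185969, minus strand: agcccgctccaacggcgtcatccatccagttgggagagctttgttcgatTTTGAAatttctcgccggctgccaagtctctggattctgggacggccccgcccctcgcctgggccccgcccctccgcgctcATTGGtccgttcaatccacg
Cdc20, chr4:118437344-118437493, minus strand: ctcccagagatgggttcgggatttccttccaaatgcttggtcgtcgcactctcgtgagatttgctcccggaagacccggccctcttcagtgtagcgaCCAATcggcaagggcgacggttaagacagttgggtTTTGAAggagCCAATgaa
Ccnf, chr17:24251410-24251559, minus strand: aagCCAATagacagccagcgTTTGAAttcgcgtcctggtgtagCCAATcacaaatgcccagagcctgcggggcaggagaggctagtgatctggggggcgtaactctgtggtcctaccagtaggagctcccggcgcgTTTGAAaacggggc
Kif15, chr9:122950931-122951080, plus strand: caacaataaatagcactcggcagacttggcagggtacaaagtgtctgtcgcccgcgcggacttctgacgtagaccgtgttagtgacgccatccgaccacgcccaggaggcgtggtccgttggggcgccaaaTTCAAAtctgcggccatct

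The motifs were searched on both strands in the whole window of 250 bases before to 50 after the start, and 34 of the 40 genes had 36 such windows. TTTGAA was found in 29 of the 36 windows (80.6%), against 17.9% of all 32851 windows of the table. CCAAT was found in 28 (77.8%), against 37.4% of all windows, and 19 (52.8%) held at least 2, against 11.7%. A CHR motif of either form stood together with a CCAAT box in 27 windows (75%), against 10.7%. Of the 6 promoters printed, that of Mad2l1 held no match although this gene was among the clearest rises at 72 h, and that of Ccnf held 2 CHR motifs and 2 CCAAT boxes although it missed the threshold there. Outside the printed stretch Spc25 has a further TTTGAA whose first base is at position 25 from the start, and Kif15 one at −234. A match is a description of the letters, and the absence of one says only that they are not in this window. In GENCODE M21 (GRCm38) Mad2l1 starts at 66535390, beyond the end of its window at 66535270, so that start was not searched. Ccna2, Cdc25c, Foxm1, Aurkb, Tpx2 and Kif20a were not in the table.

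Bulk depth was 14.9 to 24.1 M estimated counts per library (M, 1e+06), and levels are counts per M of the TMM-scaled library size (CPM). The 24 h libraries carry the label of batch 1 and the 48 h and 72 h libraries that of batch 2, so the time of 24 h and that batch cannot be told apart. Proximal tubule markers summed to 8976 CPM or more in each library, as a check of the labelled tissue. A score over 154 pseudogenes, 0 for the shams of 48 and 72 h and 1 for those of 24 h, separated the groups within 2 times. At 24 h it was 0.96 to 1.04 in sham and 0.68 to 0.89 in UNx, and at 48 h −0.03 to 0.06 in sham but 0.65 to 0.73 in UNx replicates 1 to 5, with replicate 6 at 0.02. At 72 h the groups lay between −0.07 and 0.10.

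At 72 h the mitosis genes were higher in UNx as a group: each of the 40 had a positive log2 fold change, and 36 rose past the threshold (edgeR quasi-likelihood test, Benjamini-Hochberg adjusted p under 0.05 over all genes). Among all 14556 genes tested 1.21% were called higher, 176 genes, and the 36 make up 20.5% of them. None of the 40 was called lower, against 0.502% of all genes. The median log2 fold change was 1.23 over the 40 genes and −0.004 over all genes tested. Each UNx library lay above each sham library for 36 genes, against 1.31% of all genes. Of the 50 genes with the lowest p at 72 h, 26 belong to this list. In whole tissue a larger number of dividing cells, more RNA per dividing cell and RNA of these genes in other cells cannot be told apart.

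The summed level of the 40 genes shows the same groups in each library. At 72 h it was lowest at 108.7, 146.1 in the median and highest at 164.3 CPM in sham, and 245.8, 303.8 and 419.6 CPM in UNx. The groups did not overlap, and the lowest UNx library stood above the highest sham. At 24 h the sums were 51.9, 61.3 and 78.4 CPM in sham and 79.0, 104.5 and 149.4 CPM in UNx, so the groups lay close but did not overlap. That gap rests on Spc25. This gene gave 19.7 CPM of the lowest UNx sum (replicate 1) and 12.5 CPM of the highest sham sum (replicate 3). At 48 h they were 116.3, 160.8 and 292.0 CPM in sham and 206.3, 282.0 and 460.0 CPM in UNx. There sham replicate 4, at 292.0 CPM, lay above 3 of the UNx libraries, and the other shams lay at 171.2 CPM or below.

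**Figure D1:**
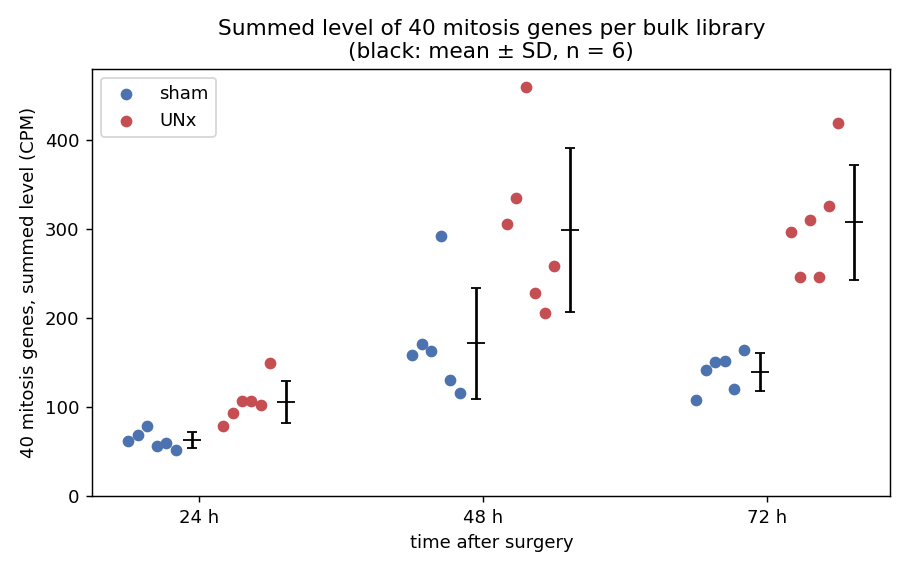
Summed level of the 40 mitosis genes (y axis, CPM) in each bulk library by time after surgery (x axis), sham in blue and UNx in red, with the mean and SD of 6 libraries in black. The groups are apart at 72 h and narrowly at 24 h (79.0 against 78.4 CPM), and at 48 h sham replicate 4 (292.0 CPM) lies among the UNx libraries.

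In each UNx group 1 library held the highest level of most of the genes. It was replicate 6 at 24 h (33 of 40 genes), replicate 3 at 48 h (35) and replicate 6 at 72 h (36). Without that library the number of genes called was 13 at 24 h, 16 at 48 h and 36 at 72 h, against 19, 23 and 36 with it. Without sham replicate 4 the number at 48 h was 33. The share of all genes called in these runs is not given here. With each library left out in turn, the median log2 fold change of the tested genes was 0.57 to 0.93 at 24 h. It was 0.68 to 1.04 at 48 h and 1.09 to 1.31 at 72 h. The DESeq2 Wald test called 22, 27 and 39 genes at 24, 48 and 72 h, against 16.1, 19.5 and 2.51% of all genes. With the replicate number as a block edgeR called 12, 23 and 31, against 22.6, 30.8 and 0.824%.

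**Figure D2:**
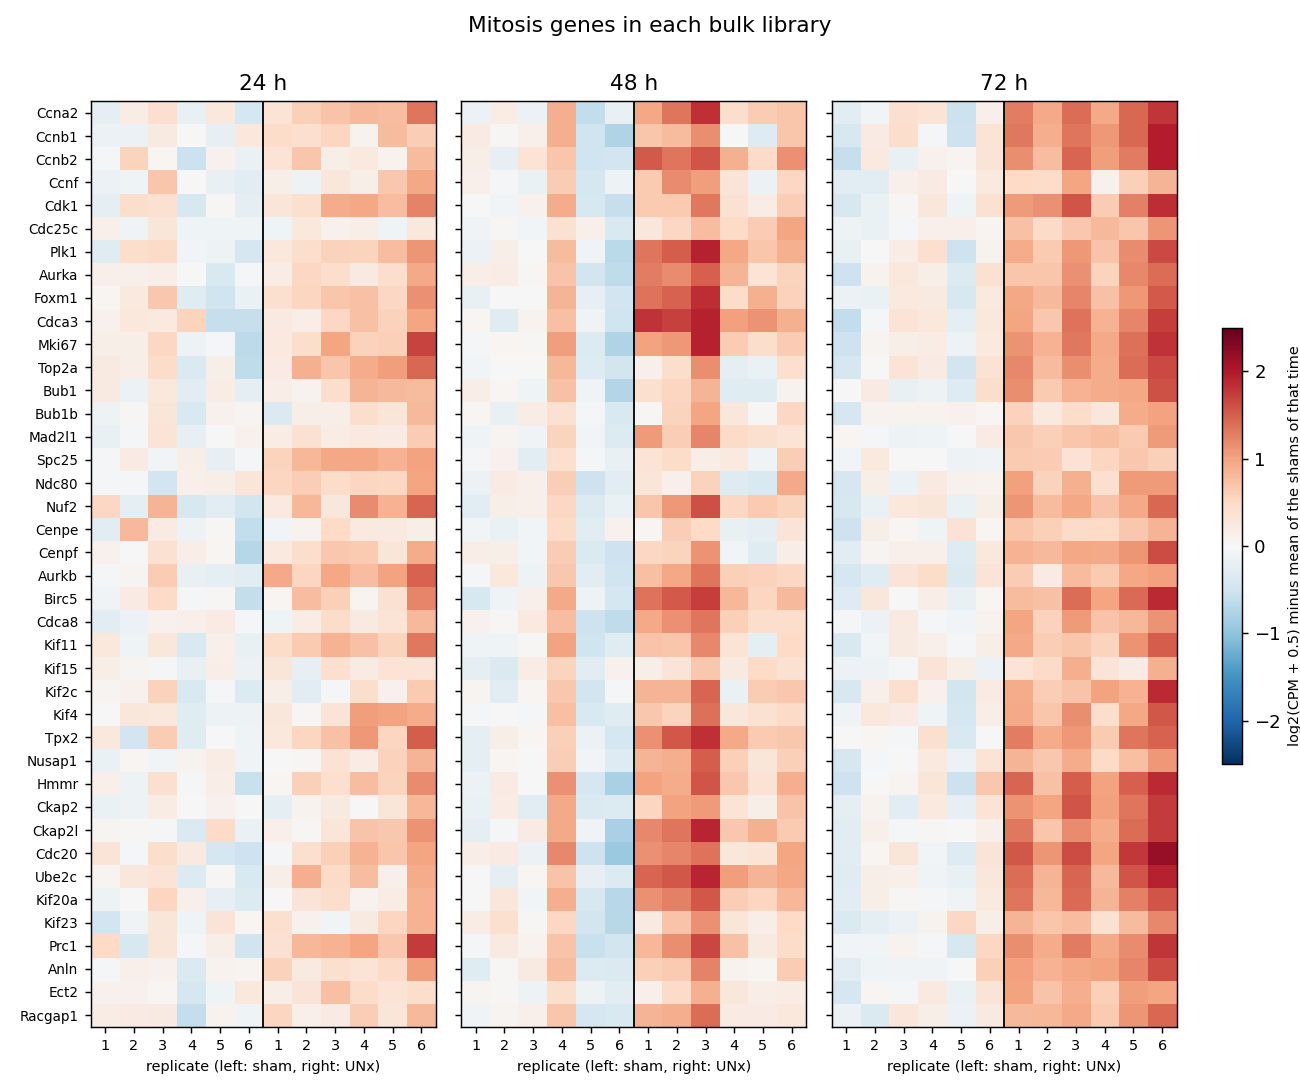
Each row is 1 of the 40 genes and each column 1 bulk library, shams to the left and UNx to the right of the black line at each time. Colour gives log2(CPM + 0.5) minus the mean of the 6 shams of that time, and the columns of 48 h sham replicate 4 and of the UNx libraries named in the text are red over most genes.

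Mitotic entry at 72 h is covered by 10 genes, of which 9 were called higher, with a median log2 fold change of 1.32. Cyclin B, encoded by Ccnb1 and Ccnb2, activates the kinase encoded by Cdk1. The mean level of Ccnb1 (± SD, n = 6) was 2.39 ± 0.757 CPM in sham and 6.77 ± 1.97 CPM in UNx. Ccnb2 rose from 2.07 ± 0.531 to 5.83 ± 1.93 CPM and Cdk1 from 3.23 ± 0.750 to 8.58 ± 2.63 CPM. All 3 rose without overlap between the groups. Ccna2, the cyclin A of somatic cells, rose by 1.39 on the log2 scale. Cdc25c, a phosphatase that activates Cdk1, rose by 1.47 from a sham level of only 0.305 ± 0.0696 CPM. The kinase genes Plk1 and Aurka rose by 1.25 and 1.11. Foxm1, a transcription factor that acts on G2 genes, rose by 1.18, and Cdca3, which helps to mark the Wee1 kinase for destruction, by 1.24.

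Ccnf, which encodes the substrate-binding subunit of a ubiquitin ligase, was the entry gene that missed the threshold at 72 h. Its level was 1.14, 1.58 and 1.85 CPM (lowest, median, highest) in sham and 1.64, 2.42 and 3.45 CPM in UNx. The groups overlapped by 1 UNx library. The log2 fold change was 0.75 (SE 0.193, adjusted p 0.0688, edgeR).

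The 2 chromosome genes were among the most abundant of the list. Mki67, which coats mitotic chromosomes and encodes the proliferation antigen Ki-67, was at 9.64, 15.2 and 16.9 CPM in sham and 26.3, 33.6 and 50.7 CPM in UNx at 72 h. Top2a, the topoisomerase that untangles sister chromatids, was at 5.84, 8.96 and 10.7 CPM in sham and 14.7, 19.5 and 27.2 CPM in UNx. Neither gene overlapped between the groups, and both were called, with log2 fold changes of 1.29 and 1.23.

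Of the 8 kinetochore and checkpoint genes, 7 were called at 72 h, with a median log2 fold change of 0.98, and none of the 8 overlapped between the groups. Mad2l1 encodes Mad2, the checkpoint protein that holds back Cdc20. It was at 4.67, 5.09 and 5.99 CPM in sham and 8.07, 8.56 and 11.4 CPM in UNx, or 0.80 on the log2 scale (SE 0.0977, adjusted p 0.00259, edgeR, higher in 6 of 6 UNx libraries). Spc25, a subunit of the Ndc80 complex that grips microtubules, was at 16.2, 17.3 and 20.9 CPM in sham and 22.6, 27.3 and 28.2 CPM in UNx, or 0.59 on the log2 scale (SE 0.0725, adjusted p 0.00259). Spc25 thus had the smallest fold change of the 40 at 72 h and one of the lowest p, since its libraries differed little within each group.

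The other Ndc80 complex genes, Ndc80 and Nuf2, rose by 1.21 and 1.26 on the log2 scale at 72 h. Bub1, a checkpoint kinase, rose by 1.41 from 0.845 ± 0.272 CPM. Cenpe, a kinetochore motor, rose by 0.67, and Cenpf, a large kinetochore protein made in G2, by 1.16. Bub1b, the gene of the checkpoint protein BubR1, was at 2.81 ± 0.423 CPM in sham and 4.51 ± 1.14 in UNx without overlap and missed the threshold (adjusted p 0.0596, edgeR).

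The chromosomal passenger complex corrects wrong attachments. Birc5 (survivin) rose by 1.45 and Cdca8 (borealin) by 1.07 on the log2 scale at 72 h. Aurkb, the kinase of the complex, had the highest p of the list there. It was at 0.954, 1.51 and 2.21 CPM in sham and 1.77, 2.75 and 3.51 CPM in UNx, with 5 of 6 UNx libraries above the highest sham and a log2 difference of 0.85 (SE 0.238, adjusted p 0.0867, edgeR). It passed the threshold in the DESeq2 Wald test (adjusted p 0.0225).

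Among the 9 spindle genes 8 were called at 72 h, with a median log2 fold change of 1.26. Ckap2, which stabilizes spindle microtubules, was at 1.06, 1.29 and 1.85 CPM in sham and 3.20, 3.87 and 5.75 CPM in UNx. The groups were far apart, and the log2 fold change was 1.58 (SE 0.195, adjusted p 0.00259, edgeR). Its relative Ckap2l rose by 1.42. Kif11, the motor that pushes the poles apart, rose by 1.04, Kif4, a chromosome-bound motor, by 1.18, and Kif2c, which takes microtubules apart at kinetochores, by 1.33. Tpx2, an activator of Aurora A, rose by 1.26, Hmmr by 1.44 and Nusap1, which bundles microtubules, by 0.85. Kif15, another motor for pole separation, was at 0.474, 0.523 and 0.847 CPM in sham and 0.750, 0.940 and 1.52 CPM in UNx. Its groups overlapped, and it missed the threshold (log2 fold change 0.88, SE 0.239, adjusted p 0.0808).

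The anaphase-promoting complex genes had the highest fold changes. Cdc20, which brings substrates to the complex, was at 2.43, 3.16 and 4.10 CPM in sham and 6.77, 10.6 and 16.1 CPM in UNx at 72 h. Its groups did not overlap, and the log2 difference was 1.71 (SE 0.212, adjusted p 0.00259, edgeR). Ube2c, the ubiquitin-carrying enzyme used by the complex, rose by 1.68, with 1.30 ± 0.276 CPM in sham and 4.16 ± 1.37 CPM in UNx.

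All 6 cytokinesis genes were called at 72 h. Kif20a, a motor that brings the passenger complex to the midzone, had the lowest p of the list. It was at 3.44, 4.31 and 5.22 CPM in sham and 8.07, 11.4 and 13.7 CPM in UNx, a gap wider than the range of the shams, and the log2 difference was 1.32 (SE 0.146, adjusted p 0.00259). Prc1, which bundles midzone microtubules, rose by 1.34, Anln, a scaffold of the contractile ring, by 1.23, and Racgap1, part of centralspindlin, by 1.06. Ect2, the exchange factor that switches on RhoA at the midzone, rose by 0.91, and Kif23, the motor subunit of centralspindlin, by 0.87. Kif23 was the called gene whose groups overlapped, with 5 of 6 UNx libraries above the highest sham.

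**Figure D3:**
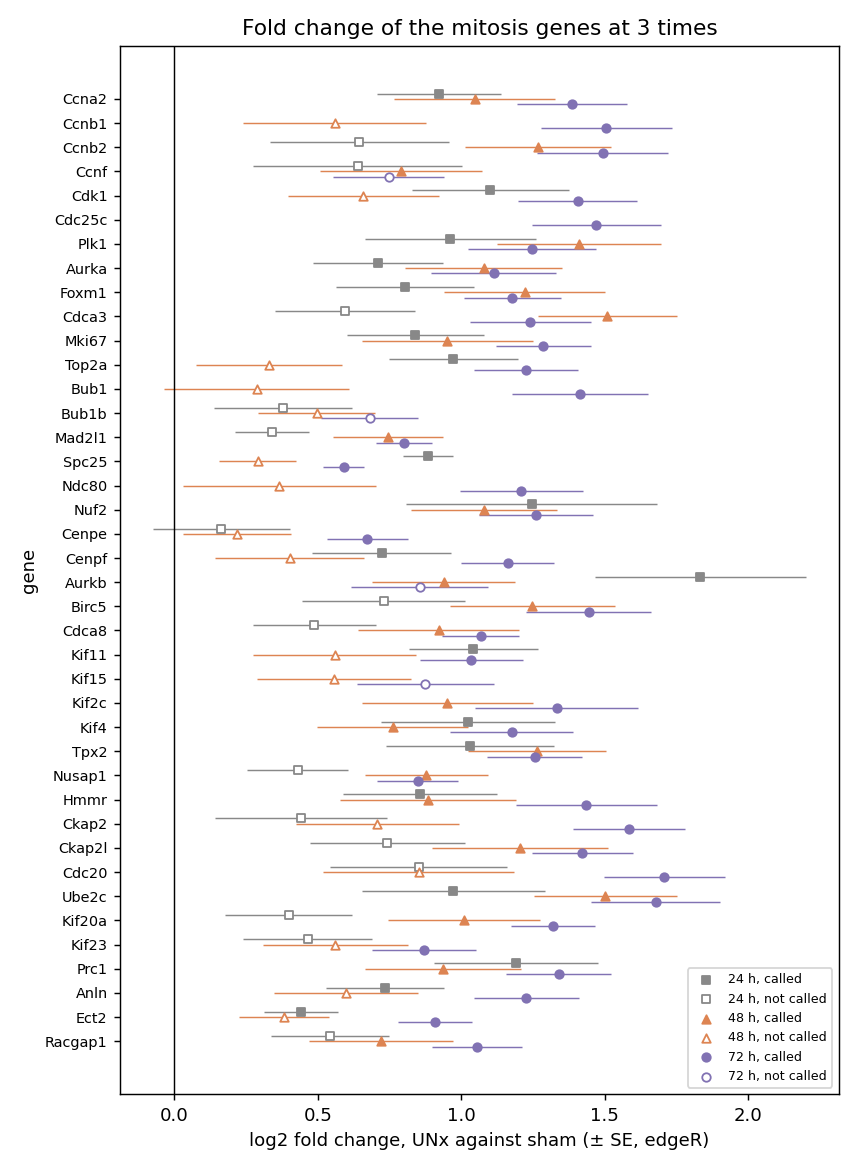
Log2 fold change (x axis, UNx against sham, with the SE of edgeR) of each of the 40 genes (y axis, ordered by role) at 24 h (grey squares), 48 h (orange triangles) and 72 h (purple circles), filled where called. Genes not tested at a time have no symbol there, and each tested gene has a positive value at each time.

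At 24 h the same genes were at lower levels in both groups and 34 of the 40 passed the filter on low counts. Ccnb1, Cdc25c, Bub1, Ndc80, Kif15 and Kif2c did not. Of the 34, 19 were called higher and 0 lower, against 14.2% of all genes called higher. Without the filter each of the 40 had a positive fold change and 17 were called, with 13% of all genes called in either direction. The median log2 fold change without the filter was 0.74, against 0.0088 over all genes. Of the tested genes 4, Spc25, Kif11, Anln and Aurka, did not overlap between the groups, against 5.75% of all genes. The share of all genes called was thus far above that of 72 h, and the profile score moved with the group at 24 h. With the score as a covariate 2 genes were called, Spc25 (log2 fold change 1.08, adjusted p 0.0329) and Mki67 (1.96, adjusted p 0.0491), against 0.645% of all genes, and the median of those tested was 1.58. With the score in a fit over all 36 libraries 16 of the 40 were called at 24 h, among them Spc25, Mki67, Aurkb, Tpx2 and Prc1. The share of all genes called in that fit is not given here, so the 16 cannot be set against it.

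Spc25 had the lowest p at 24 h. It was at 11.3, 12.8 and 15.4 CPM in sham and 19.7, 25.4 and 26.9 CPM in UNx, with no overlap and a log2 difference of 0.88 (SE 0.0878, adjusted p 2.95e-05, edgeR). It was 1 of the 50 genes with the lowest p at that time, and the only one of this list among them. Aurkb was at 0.118, 0.191 and 0.661 CPM in sham and 0.573, 0.944 and 1.56 CPM in UNx, a log2 difference of 1.83 (SE 0.368, adjusted p 0.0023). Its groups overlapped through sham replicate 3. Kif11 was at 0.616, 0.961 and 1.27 CPM in sham and 1.48, 1.83 and 3.12 CPM in UNx, without overlap (log2 fold change 1.04, SE 0.225, adjusted p 0.00365). Top2a was at 1.53, 3.00 and 3.80 CPM in sham and 3.15, 5.39 and 7.94 CPM in UNx, with 5 of 6 UNx libraries above the highest sham (log2 fold change 0.97, SE 0.224, adjusted p 0.00536).

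The 2 tested genes with the highest p at 24 h showed much overlap. Ckap2 was at 0.366, 0.467 and 0.606 CPM in sham and 0.324, 0.577 and 1.22 CPM in UNx (log2 fold change 0.44, SE 0.300, adjusted p 0.295, edgeR). Cenpe was at 1.06, 1.83 and 3.71 CPM in sham and 1.80, 2.23 and 2.89 CPM in UNx (log2 fold change 0.16, SE 0.239, adjusted p 0.644), and with the profile score as a covariate the fold change became −0.35. That of Ckap2 became 2.02 (unadjusted p 0.00096, adjusted p 0.102). By role, the genes called at 24 h were 5 of mitotic entry, both chromosome genes, 3 of the kinetochore, 1 of the passenger complex, 4 of the spindle, 1 of the anaphase-promoting complex and 3 of cytokinesis. Of the 6 untested genes, Ndc80 did not overlap between the groups, at 0.461 CPM or more in UNx and 0.354 CPM or less in sham.

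At 48 h 39 genes were tested, Cdc25c being under the filter, and 23 were called higher and 0 lower, against 16.9% of all genes called higher. Without the filter each of the 40 had a positive fold change, with a median of 0.86 (−0.09 over all genes), and 22 were called, against 15.7% of all genes in either direction. Of the tested genes 3 did not overlap between the groups, against 6.21% of all genes. UNx replicates 1 to 5 differ from the shams of 48 h in profile score and in mitochondrially encoded RNA (25.8 to 26.4% of counts, against 14.0 to 15.5% in the shams and 15.2% in replicate 6). With the score as a covariate 0 genes were called in edgeR (5 with an unadjusted p under 0.05), and 0 of all genes. With replicate 6 as the UNx library in place of all 6, whose spread is then taken from the shams alone, 0 were called (5 with an unadjusted p under 0.05), each of the 40 was positive and the median was 0.61. In the DESeq2 Wald test with all libraries 27 were called.

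Cdca3 had the lowest p at 48 h, at 2.97, 4.33 and 7.74 CPM in sham and 8.62, 12.9 and 18.1 CPM in UNx, without overlap (log2 fold change 1.51, SE 0.242, adjusted p 0.000768, edgeR). Ube2c was at 1.39, 1.74 and 3.44 CPM in sham and 3.82, 5.25 and 8.48 CPM in UNx, without overlap (log2 fold change 1.50, SE 0.249, adjusted p 0.000887). Tpx2 was at 2.59, 3.56 and 5.85 CPM in sham and 6.08, 8.12 and 14.4 CPM in UNx. It was the last of the genes without overlap (log2 fold change 1.27, SE 0.241, adjusted p 0.00192). Ccnb2 was at 1.80, 2.71 and 4.72 CPM in sham and 4.03, 7.14 and 9.19 CPM in UNx, where 5 of 6 libraries lay above the highest sham (log2 fold change 1.27, SE 0.255, adjusted p 0.0026). With the profile score as a covariate the fold changes of these genes were 0.89, 1.05, 0.66 and 1.11, and none was called.

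The kinetochore was the role with the lowest share of calls at 48 h, 2 of 8, Mad2l1 and Nuf2, with a median log2 fold change of 0.38. The 2 genes with the highest p are both from it. Ndc80 was at 0.570, 1.03 and 1.84 CPM in sham and 0.683, 1.28 and 2.46 CPM in UNx (log2 fold change 0.37, SE 0.337, adjusted p 0.419, edgeR). Bub1 was at 0.623, 1.35 and 2.59 CPM in sham and 1.01, 1.73 and 2.89 CPM in UNx (log2 fold change 0.29, SE 0.321, adjusted p 0.511), and the fold change became −0.040 with the covariate. That of Ndc80 became 1.13 (unadjusted p 0.043, adjusted p 0.338), and 1.19 with replicate 6 as the UNx library. Both pairs of groups overlapped over most of their range. At 48 h 7 of 9 tested entry genes, all 3 passenger genes and 6 of 9 spindle genes were called. Of all genes 16.9% were called higher there, and the 2 of 8 kinetochore genes lie near that share. The difference between roles was not tested. Top2a, called at 24 h and 72 h, was at 12.1 ± 4.56 CPM in sham and 15.2 ± 6.15 in UNx at 48 h (adjusted p 0.334).

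Over the 3 times 11 genes were called at each, 18 at 2 times, 9 at 1 time and 2 at none. Whether the effect differed between times was tested in 1 fit over all 36 libraries, in which all 40 genes were tested and no sham was shared between times. Between 24 and 48 h the effect differed for 2 of the 40 genes, against 37% of all genes. For Cdca3 it was larger at 48 h, by 0.94 (SE 0.364, adjusted p 0.0395, edgeR), and for Spc25 smaller, by a difference of −0.57 (SE 0.152, adjusted p 0.00355). Both differences were lost with the profile score as a covariate. Leaving out 1 library gave 1 call for sham 24 h replicates 1, 2 and 4, sham 48 h replicates 1, 2, 3, 5 and 6, UNx 24 h replicates 1, 2 and 3 and UNx 48 h replicates 1 and 2. It gave 3 for UNx 48 h replicate 6 and 4 for sham 48 h replicate 4.

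Between 48 and 72 h edgeR called 0 of the 40 differences and DESeq2 0, and 9 had an unadjusted p below 0.05, against 14.6% of all genes called. The lowest p were those of Top2a (larger at 72 h by 0.88, SE 0.330, adjusted p 0.0658) and Bub1 (by 1.12, SE 0.422, adjusted p 0.0699). Without UNx 48 h replicate 3, the library with the highest levels, 5 genes were called, without sham 48 h replicate 6 or sham 72 h replicate 6 there were 3, and without UNx 72 h replicate 2 there was 1. Between 24 and 72 h edgeR called 0 (5 with an unadjusted p below 0.05), against 4.15% of all genes, with the lowest p for Ckap2 (by 1.16, SE 0.418, adjusted p 0.104) and Kif20a (by 0.94, SE 0.342, adjusted p 0.109). Without UNx 24 h replicate 6 there were 2. Of the 40 genes 37 had a larger fold change at 72 h than at 24 h in that fit, with a median difference of 0.46.

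Other genes of mitosis, from a list of 73 that shares no gene with the 40, were counted beside it. At 72 h 69 of 70 tested had a positive fold change and 33 were called higher, against 1.21% of all genes, and 0 lower. Their median log2 fold change was 0.82, beside 1.23 for the 40. Kif22, a chromosome-arm motor, rose by 1.33 on the log2 scale, with 1.66 ± 0.307 CPM in sham and 4.17 ± 1.06 CPM in UNx. Ube2s, the enzyme that extends ubiquitin chains for the anaphase-promoting complex, rose by 0.33, with 41.0 ± 2.08 and 51.6 ± 2.44 CPM. At 24 h 18 of 54 tested were called higher and 1 lower, and at 48 h 22 of 70 higher and 1 lower, where 14.2 and 16.9% of all genes were called higher.

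Of 26 S phase genes 10 were called higher at 72 h and 0 lower, with a median log2 fold change of 0.35. Tk1, the thymidine kinase of dividing cells, rose by 1.25 and Rrm2, a subunit of ribonucleotide reductase, by 1.05. Over time 18 of the 26 S phase genes were called higher at 24 h, 5 at 48 h and 10 at 72 h, beside 19, 23 and 36 of the 40 mitosis genes. Of all genes 14.2, 16.9 and 1.21% were called higher at these times, and the 5 at 48 h lie near that share. The difference between the 2 lists was not tested. Of 15 genes of the MuvB, E2F and NF-Y factors found in the bulk table edgeR called 3 higher and 3 lower at 24 h and 4 higher and 3 lower at 48 h. These counts lie near the shares of all genes, 14.2% higher and 13.1% lower at 24 h and 16.9 and 16% at 48 h. At 72 h edgeR called 0 of the 15, against 1.21% of all genes higher and 0.502% lower. There 8 had an unadjusted p below 0.05, and the list had a median log2 fold change of 0.05. E2f8 (log2 fold change 1.03, adjusted p 0.0563) and E2f7 (0.91, adjusted p 0.113), transcriptional repressors of the E2F family, had the lowest p.

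Summed markers of immune cells overlapped between the groups at 72 h. The summed level of 7 myeloid markers was 93.9 to 144.7 CPM in sham and 86.5 to 128.3 CPM in UNx, and that of 6 lymphocyte markers 1.90 to 2.92 and 1.81 to 3.48 CPM. Among the 16 marker lists 1 gene was called at 72 h, in the intercalated cell list, and it was lower. Fibroblast markers at 72 h were 124 to 173 CPM in sham and 118 to 177 CPM in UNx, and endothelial markers 275 to 337 and 255 to 380 CPM. At 24 h the markers called higher were 2 each of red blood cells and of the distal convoluted and connecting tubule and 1 each of the proximal tubule, thick ascending limb, thin limb, fibroblasts and mural cells. Those called lower were 2 of intercalated cells and 1 each of the thin limb and podocytes, where 14.2% of all genes were called higher and 13.1% lower. Summed adipocyte markers were at most 0.822 CPM in sham, while the highest UNx library had 269.8 CPM and the median one 0.0983. The groups overlapped in summed fibroblast markers, at 46.6 to 83.3 CPM in sham and 66.2 to 173 CPM in UNx. At 48 h 2 proximal tubule and 2 mural markers and 1 each of the thick ascending limb, thin limb, podocytes and myeloid cells were called higher. Those called lower were 2 each of intercalated cells, fibroblasts and red blood cells and 1 each of the proximal tubule, distal tubule, thin limb and myeloid cells, against 16.9% of all genes higher and 16% lower. Their part in the calls of the mitosis genes at these times was not tested.

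In the nuclei at 24 h the mitosis genes were rare. Of 16500 nuclei, 9648 held none of the 40 at an estimated count of 0.5 or more, 6367 held 1 or 2 and 58 held 5 or more. The numbers at 3, 4, 5 and 6 genes were 338, 89, 33 and 5, so a boundary at 5 is a range and not a cell type. Between 5 and 9 genes there were 41 nuclei with a median of 37162 UMIs (unique molecular identifiers, which count molecules), against 8297 over all nuclei, and 30 of the 41 lay above the 95th percentile of 21501 UMIs. At 10 or more genes there were 17 nuclei with a median of 13122 UMIs, and 3 of these lay above it. No nucleus held 8 genes, and the 17 held 10 to 30. Nuclei that share a droplet were not removed here, and 18 barcodes occur in more than 1 library.

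**Figure D4:**
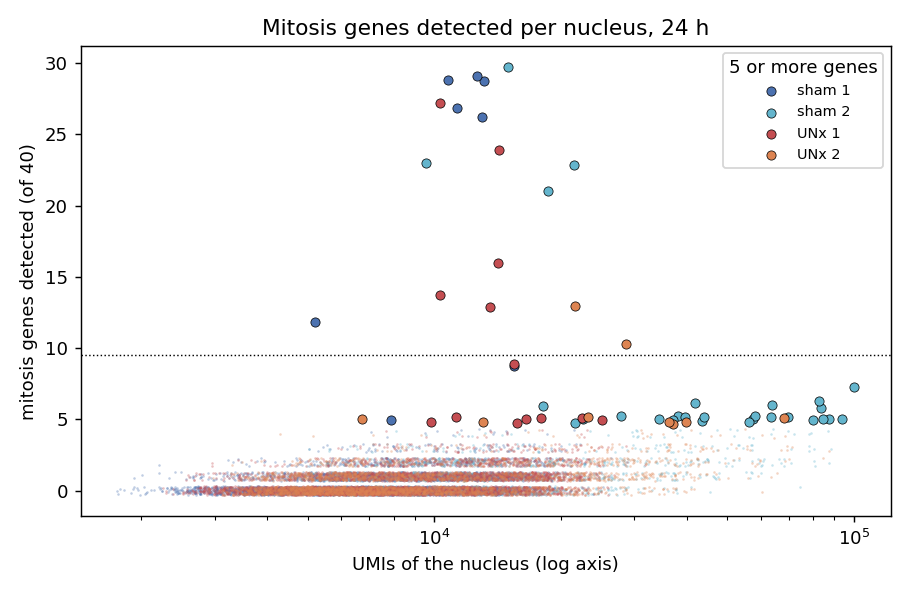
Number of the 40 mitosis genes detected in each nucleus (y axis, spread slightly for sight) against its UMIs (x axis, log scale), coloured by mouse, with large points at 5 genes or more. The 17 nuclei above the dotted line hold 10 to 30 genes at middling UMI totals, while most of the 41 with 5 to 9 genes lie at the right, among the deepest nuclei.

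By mouse, nuclei with 10 or more genes numbered 6 of 5342 (0.112%, exact 95% interval 0.0412 to 0.244%) and 4 of 2641 (0.151%, 0.0413 to 0.387%) in sham and 5 of 5151 (0.0971%, 0.0315 to 0.226%) and 2 of 3366 (0.0594%, 0.0072 to 0.214%) in UNx. These intervals cover counting error only and overlap between all mice. With 2 mice against 2 the smallest exact two-sided permutation p is 0.33, so no test was made. At 5 or more genes the share was 0.605% ± 0.644 in sham and 0.260% ± 0.0106 in UNx (SD, n = 2), because sham mouse 2 had 1.06%. Without that mouse the difference, UNx minus sham, turned from −0.345 to 0.11 percentage points. Its nuclei with 5 to 9 genes had a median of 56929 UMIs. With each nucleus thinned to 1500 UMIs, the share with 2 or more genes was 0.711 and 0.568% in sham and 0.602 and 0.654% in UNx. The sort on a DNA stain can set these shares, since nuclei in G2 hold more DNA, and its gate is not given in the sources used here.

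The 17 nuclei fell in 9 of the 30 classes of the authors' deposited annotation. CPC held 4, CNT 3, Fib, PTS2 and Uro 2 each, and DCT, PEC, PTS1 and PTS3 1 each. Against all other nuclei, the list most raised in CNT and DCT was that of the distal convoluted and connecting tubule, in CPC the principal cell list (1689 against 166 CPM), in Fib the fibroblast list, and in PTS1 and PTS2 the proximal tubule list. PTS3 had the proximal tubule list as its most abundant one (6577 CPM), while the list most raised there was that of myeloid cells (144 against 33.8 CPM). The files do not spell out the class names, and no list here holds markers for Uro or PEC. MPC, which held none of the 17, was led by the thin limb list (12229 CPM, against 682 in other nuclei). That sum was not split by gene and does not by itself name the class. Together CNT and CPC, the 2 classes with the most of the 17, held 7 in 937 nuclei (0.747%, exact 95% interval 0.301 to 1.53%). PEC held 1 of 96 (1.04%, 0.0264 to 5.67%) and Uro 2 of 241 (0.830%, 0.101 to 2.97%). A share of this size is thus not particular to CNT and CPC. Since CNT and CPC lead by the same count, setting them against others is a description. The intervals pool the nuclei of all mice and cover counting error only. The proximal tubule classes, with 6456 nuclei and more UMIs per nucleus (medians 12111 and 6701), held 4 (0.062%, 0.0169 to 0.159%). At 5 or more genes the intervals of these 2 sets overlapped, with 8 of 937 (0.854%, 0.369 to 1.68%) and 19 of 6456 (0.294%, 0.177 to 0.459%), and the thick ascending limb and endothelial classes held 2 each. Thinned to 1500 UMIs, the share with 2 or more genes was highest in Macro, at 2 of 23 nuclei (8.70%, 1.07 to 28.0%). Below it came Uro with 9 of 241 (3.73%), MPC with 13 of 654 (1.99%), CPC with 8 of 443 (1.81%) and ICA with 5 of 293 (1.71%).

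The 7 nuclei of CNT and CPC came from 3 mice: 3 from sham mouse 1, 1 from sham mouse 2 and 3 from UNx mouse 1. The 4 of the proximal tubule came from all 4, 1 from each. At 10 or more genes the 3 thick ascending limb classes held 0 of 3121 nuclei. That allows a share of up to 0.0961% (3 counts of the total, exact upper 95% bound 0.118%). The endothelial classes held 0 of 1506, which allows up to 0.199% (exact bound 0.245%), and the immune classes 0 of 86, which allows up to 3.49% (exact bound 4.20%). Median depths there were 6765, 4169 and 3499 UMIs, against 12111 in the proximal tubule and 6701 in CNT and CPC together. Depth limits how many genes can be found in a nucleus, and its part in these counts was not tested. Podo, the podocyte class, held 0 of 139 at 10 or more genes but 3 at 5 or more. None of these 3 remained at 2 genes after thinning. A PTS2 nucleus with 13 genes kept 1, so thinning does not tell such nuclei apart.

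Some of the 17 did not carry only the markers of their class. A nucleus labelled Uro with 29 mitosis genes held 29.6 UMIs of endothelial markers and 4 of proximal tubule markers. A nucleus labelled Fib with 10 genes held 151.6 UMIs of proximal tubule and 129.9 of thick ascending limb markers against 4 of fibroblast markers, at 28580 UMIs. A CPC nucleus with 16 genes held 323.5 UMIs of distal tubule markers and 13 of principal cell markers. The other Fib nucleus, with 24 genes, held 27 UMIs of fibroblast markers. The nucleus with the most mitosis genes, 30, was labelled Uro, held 185.4 UMIs of them at 14947 UMIs and came from sham mouse 2.

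Within the 17, detection differed between the genes. Mki67, Top2a, Kif11, Kif15 and Kif4 were each found in 16 of the 17, and Cdk1 in 13. Plk1 and Ube2c were each found in 1, Cdc20 and Kif20a in 2, and Ccna2 and Aurka in 3. The 10 genes found in most of these nuclei span a median of 38.2 kb in the genome (GENCODE M21, GRCm38) and the 10 found in fewest 11.1 kb. Over the 40 genes the rank correlation between span and number of nuclei was 0.68, given as a description because the genes share the nuclei. S phase genes were present too: of 26, a median of 14.5 was found in the 6 nuclei with 10 to 16 mitosis genes and 10 in the 11 nuclei with 21 to 30, against 1 in nuclei with up to 2. That division was made at the gap between 16 and 21 after the values were seen.

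The genes differed in how far their UMIs came from such nuclei. Counting for each gene the nuclei with at least 9 of the other 39, these held 47.2% of the UMIs of Nuf2, 45.9% of Ckap2l, 42.5% of Top2a, 40.4% of Cenpf and 31.4% of Mki67. They held 1.13% of the UMIs of Spc25, 2.29% of Kif23, 2.53% of Ect2 and 5.63% of Nusap1, the 4 genes found in most nuclei (1485, 1492, 935 and 652). Plk1 and Ube2c also had little there, 0.875 and 1.14%, of few UMIs in all. Levels of these 4 genes are given by class as CPM, a share of the RNA of the class and not of the RNA of the gene. PTS1, PTS2 and PTS3 together held 60.8% of the UMIs of Spc25, 53.2% of Nusap1, 77.9% of Ect2 and 11.4% of Kif23. Summed proximal tubule markers were at 446 to 7160 CPM (median 2193) in the 27 other classes. Free RNA and shared droplets can both put such UMIs in a nucleus, and their source was not tested. A nucleus with a UMI is therefore not read as one that expresses the gene.

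Kif23 (chromosome 9) was highest in MTAL, at 67.2 CPM in the mean of the 4 mice (38.9 to 105), followed by MPC (59.8, 24.1 to 93.0), Uro (54.9, 34.5 to 72.4) and ICB (51.3, 36.8 to 93.2). These 4 classes do not differ beyond the spread over mice. It was found in 326 of 1626 MTAL nuclei (20%) and in 54 of 2697 PTS1 nuclei (2%), although PTS1 nuclei were deeper (medians 10874 and 6507 UMIs). At 1500 UMIs per nucleus these shares were 7.5 and 0.297%. Without thinning the share in PTS1 was the lowest of the 23 classes, with EC2 next at 2.82%. At 1500 UMIs PTS2 (0.239%) and MD (0 of 50 nuclei) lay below PTS1, and PTS3 was at 0.539%. By level PTS1 was the lowest class for Kif23, at 3.22 CPM (0.706 to 7.21), followed by PTS2 (3.85) and PTS3 (5.62).

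Ect2 (chromosome 3) was highest in PTS3, at 34.4 CPM (17.6 to 71.1), found in 435 of 1671 nuclei (26%), and the lowest mouse there exceeded the highest mouse of each other class. The next class was Uro at 10.3 CPM (5.19 to 15.8). In PTS3 the mice stood at 71.1 and 26.9 CPM in sham and 22.0 and 17.6 CPM in UNx, so both shams lay above both UNx mice. Spc25 (chromosome 2) was highest in CNT (20.0 CPM, 8.88 to 27.8) and PTS1 (17.2, 11.6 to 24.9) and low in MTAL (5.02, 1.17 to 8.01). CNT, PTS1 and the next classes, Per (15.8 CPM) and MD (15.7), do not differ beyond their spread. Nusap1 (chromosome 2) was spread over classes, led by PEC at 11.5 CPM (0 to 31.4) and MPC at 9.50 (5.57 to 13.4), with overlapping mice.

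**Figure D5:**
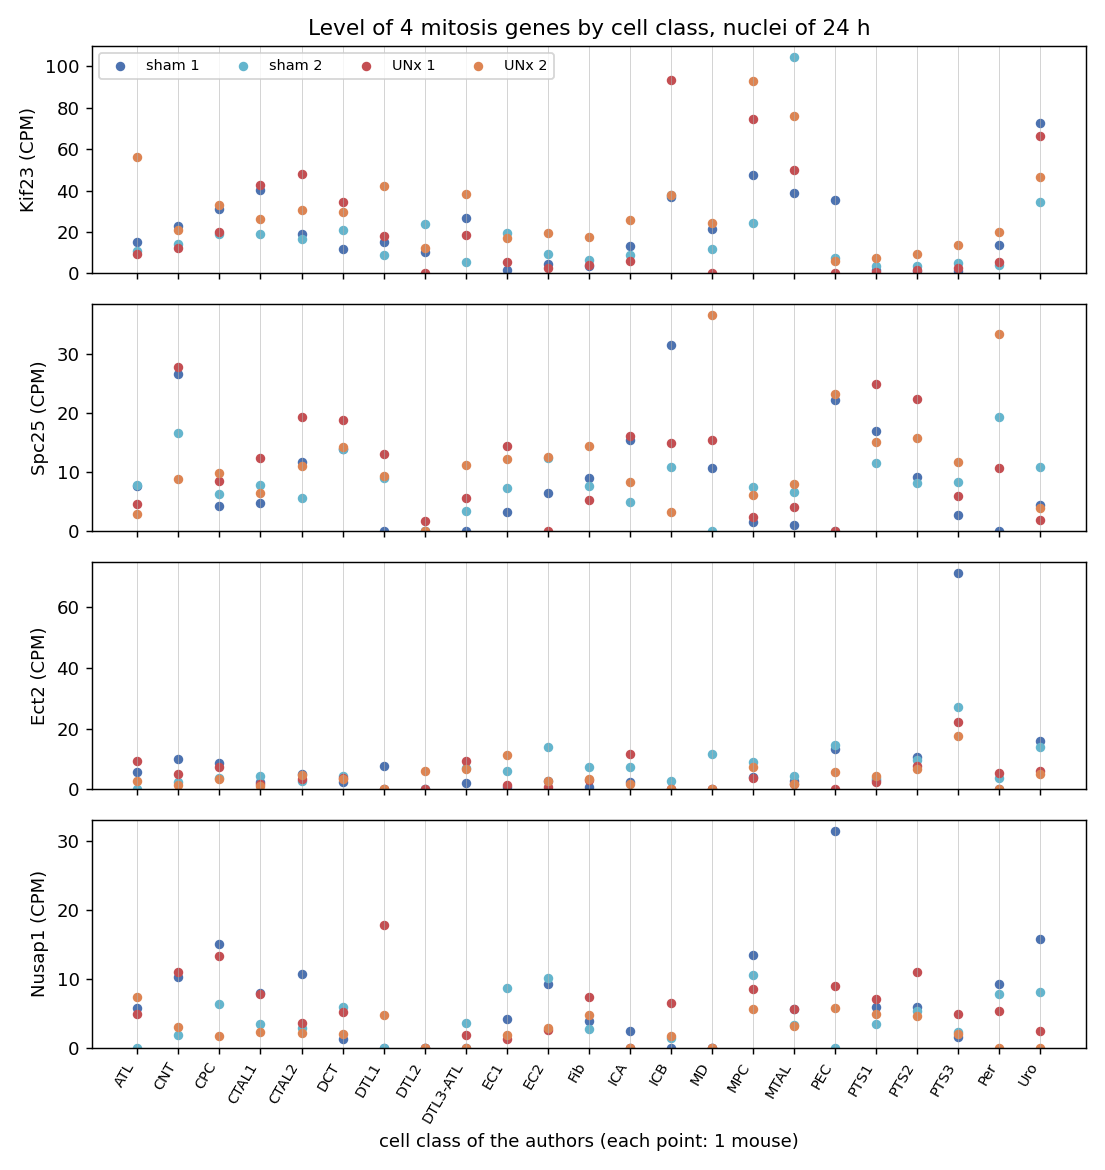
Level of Kif23, Spc25, Ect2 and Nusap1 (y axes, CPM of the UMIs of the class) in the 23 classes with at least 10 nuclei in each mouse (x axis), 1 point per mouse. Ect2 stands out in PTS3, and Kif23 is high in MTAL, MPC, Uro and ICB and low in PTS1, PTS2 and PTS3.

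Summed over all nuclei of a mouse, 37 of the 40 genes were tested between UNx and sham, and 7 had a positive fold change: Spc25, Kif23, Ccnb2, Ube2c, Ccna2, Nusap1 and Foxm1. The others were lower in UNx, and the median log2 fold change of the 37 was −0.50. In bulk at 24 h all 34 tested were higher, with a median of 0.74. This difference between the 2 kinds of data was not tested. In edgeR 0 of the 37 were called and 2 had an unadjusted p below 0.05, DESeq2 called 0, and of all 19975 genes edgeR called 0%. With the labelled batch as a block edgeR called 0 of the 37, of which 12 had an unadjusted p below 0.05, against 1.04% of all genes. The 2 were lower in UNx. Cenpf was at 1.23 and 1.15 CPM in sham and 0.270 and 0.378 CPM in UNx (log2 fold change −1.88, SE 0.446, adjusted p 1), and Ckap2l at 0.732 and 0.662 against 0.270 and 0.233 CPM (−1.46, SE 0.450, adjusted p 1). As much as 40.4 and 45.9% of their UMIs lay in nuclei with at least 9 other genes of the list, of which there were 17 and 18 in all. In bulk libraries of other mice at 24 h Cenpf was called higher, by 0.72.

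Per class, 114 gene and class pairs in 19 of 23 classes were tested, 0 were called in edgeR and 6 had an unadjusted p under 0.05, with 0% of all 219722 pairs called. With 2 mice per group an absence of calls does not show that levels did not differ. By the labels mouse 1 of either group belongs to batch 3 and mouse 2 to batch 4. With that batch as a block 3 pairs were called, against 0.716% of all pairs. Kif23 in MPC was at 48.5 and 23.2 CPM in sham and 75.6 and 98.5 CPM in UNx, a log2 fold change of 1.36 with the block (adjusted p 0.0135, 1 without it). Spc25 in PTS2 was at 9.27 and 8.10 CPM in sham and 22.5 and 15.9 CPM in UNx (log2 fold change 1.14, adjusted p 0.0318 with the block, 1 without it). Ect2 in PTS3 fell by 1.22 on the log2 scale with the block (adjusted p 0.0323, 1 without it). In PTS2 and PTS3 3.03 and 2.47% of all genes were called with the block, and in MPC 0.391%. In bulk at 24 h Spc25 and Ect2 were both called higher (0.88 and 0.44, the latter with adjusted p 0.0199), so the sign in these nuclei is the same for Spc25 and the opposite for Ect2. Kif23 was not called there (0.47, adjusted p 0.137). The authors' other form of the classes divides PTS1, PTS2 and PTS3 nearly by group: 980 of 983 sham PTS2 nuclei are named PTS2 and 1102 of 1105 UNx ones UNx PTS2, and 702 of 713 sham PTS3 nuclei PTS3 and 955 of 958 UNx ones UNx PTS3. The values in PTS2 and PTS3 thus compare nuclei that this other form puts in different clusters. Levels in this paragraph and the one before it are scaled by TMM, those by class above are not.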

How the data were processed

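Bulk values are estimated counts per gene that the authors deposited without normalization, made, per the submitters' processing notes, with Salmon 1.5.0 on GRCm39 (FastQC 0.11.8 and R 4.10 are named too). Nucleus values are deposited estimated UMI counts with the authors' deposited class labels. For these the notes name alevin, Seurat and mm10. Of the bulk values 34.1% and of the nucleus values above 0 13.9% are not whole. Salmon splits reads among similar transcripts, and 22 of the 40 genes overlap another annotated gene, 10 of them a protein-coding one, so these counts can hold shared reads. The bulk kit keeps strand, per the labels, and whether counting used strand is not given in the sources used here.

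Counts were rounded (nuclei after summing per mouse) and tested with edgeR 4.0.16 in R 4.3.3 (filterByExpr, TMM, glmQLFTest, two-sided), each time against its own shams. A gene was called at an adjusted p under 0.05 over all genes. SEs were computed from the log2 fold changes and their F statistics. The members and lists were chosen with earlier results of these data known. Full values are given for the 4 genes with the lowest p and the 2 tested genes with the highest p at each time, the 2 with the lowest p for each difference and for each other list, and the 4 found in most nuclei. Groups, times and batches come from the labels. Replicate pairs of bulk libraries differed beyond sampling noise (90 pairs), and the p-values measure the spread between these mice. For the nuclei the replicate number marks the labelled batch, which pairs the mice (correlation of deviations 0.81). Alternatives were DESeq2 1.42.0 (size factors and Wald test), no filter, other covariates and leaving out libraries.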

Additional observations from a re-analysis of the deposited data

Results flagged for a closer look

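In groups of 6 libraries the highest or lowest value was set against the rest, over 42 groups, of which 6 stood apart. Chance alone marks about 1 in 20 groups. At 48 h sham replicate 4 lay above the other shams in the summed level of the 40 genes (292.0 CPM, next 171.2, gap over range 0.687), in Cdca3 (7.74 CPM, next 4.73, gap over range 0.630) and in Ube2c (3.44 CPM, next 1.96, gap over range 0.720). At 24 h sham replicate 3 lay above the others in Aurkb (0.661 CPM, next 0.281, gap over range 0.701). At 72 h sham replicate 2 lay above the others in Spc25 (20.9 CPM, next 17.7, gap over range 0.661), and UNx replicate 6 in Mad2l1 (11.4 CPM, next 9.05, gap over range 0.703).

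The UNx effect differed between 24 and 48 h, by the test of the difference, for Cdca3 (0.94 larger at 48 h on the log2 scale) and for Spc25 (−0.57). Of all genes 37% differed between these times.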

How the results depend on the processing

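Every tested gene of the list kept a positive bulk fold change in each alternative run, except Cenpe at 24 h (−0.35) and Bub1 at 48 h (−0.040, and −0.0074 with all 36 libraries) under the profile score. The number of genes called at 24 h was 2 with that score, 16 with the score over all 36 libraries and 12 with the replicate block. Of all genes 0.645% were called with that score and 22.6% with the block. The share for the score over all 36 libraries is not given here. At 48 h it was 0 with the score, 0 with the score over all 36 libraries, and 0 without UNx replicates 1 to 5. Leaving out 1 library gave 13 to 25 calls at 24 h, 16 to 33 at 48 h and 32 to 37 at 72 h. The share of all genes called in each of these runs is not given here. For the difference between 24 and 48 h the score gave 0 and no filter 1, and leaving out 1 library 1 to 4. Leaving out 1 library gave 0 to 5 for 48 against 72 h and 0 to 2 for 24 against 72 h. By class in the nuclei the replicate block gave 3 calls and no filter 1. In bulk same-numbered libraries were not paired (correlations −0.30 to 0.14, own number highest in 1 of 18), and the replicate block gave 23 calls at 48 h and 31 at 72 h. The cause was not tested. With 2 mice per group and few UMIs per gene, the absence of a call in the nuclei says little.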
